A study of Mus musculus with 2 samples.

Results

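The gasdermin pathway was followed through 9 genes: the gasdermins Gsdmd and Gsdme, the caspase genes Casp1, Casp4 and Casp8, the inflammasome genes Nlrp3 and Pycard, and the cytokine genes Il1b and Il18. They were picked by symbol, and all 9 were found among the 19465 features of the count matrices. The series holds spatial transcriptomics of orthotopic pancreatic tumors in mice, with 1 library labelled KPC-shZEB1 (tumors grown from KPC cells with a knockdown of Zeb1) and 1 labelled KPC-shV (the vector control). KPC is a mouse pancreatic cancer line, and both groups were allografts in the pancreas that differed in the injected cells. The assay took 2 tumors per group, and the sources used here do not say which tumor a library covers. The study's text describes the tumors as treated with gemcitabine, which the labels do not name. Each barcoded spot of a Visium CytAssist slide reads probes from a patch of tissue, usually with cells of more than 1 type, and the deposited values are counts of probe molecules, told apart by unique molecular identifiers (UMIs).

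Pyroptosis is a lytic form of cell death in which a protease cuts a gasdermin and the freed amino-terminal part forms pores in the plasma membrane. GSDMD is cut by caspase-1, which an inflammasome of the sensor NLRP3 and the adaptor ASC (the product of Pycard) activates, and by mouse caspase-11 (the product of Casp4), which senses bacterial lipopolysaccharide in the cytosol. GSDME is cut by granzyme B, among other proteases, so that it links cytotoxic lymphocytes to this form of death. Caspase-1 also matures pro-IL-1β and pro-IL-18. All of these steps act on proteins, so transcript levels measure the parts of the pathway and not its activity.

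The libraries labelled KPC-shZEB1 and KPC-shV held 2220 and 3552 spots with 140493626 and 172059528 UMIs. Normal exocrine tissue took unequal shares of the sections: acinar-rich spots, in which over 20% of UMIs came from acinar genes, made up 34.2% of the KPC-shZEB1 section and 7.07% of the KPC-shV section. Levels are therefore given over the 1460 and 3301 other spots, which held 85436413 and 165556386 UMIs, as UMIs scaled to a total of 1000000 (CPM). Each log2 ratio between the libraries has the one labelled KPC-shZEB1 on top. With 1 library per group there was no test, and each 95% interval covers counting error only. Zeb1, the targeted gene, was read at 15.6 CPM in the library labelled KPC-shZEB1 and at 12.7 CPM in the library labelled KPC-shV (log2 ratio 0.30, interval 0.20 to 0.40), and over all spots the log2 ratio was -0.20, which is 0.28 above the median gene there. Relative to other genes, Zeb1 summed over spots was therefore not lower in the library labelled KPC-shZEB1 either way. The knockdown was made in the injected cells, whereas these spots also hold other cells, and Zeb1 was not read in tumor-rich spots. The values thus do not measure the knockdown in the tumor cells. The study gives the knockdown efficiency in KPC cells and stained tumors for Zeb1. Every direction below follows the labels as given. The sections also differed in their marker lists. The T cell list (all 7 genes higher, 148 against 31.0 CPM) and the macrophage list (all 7 higher, 2621 against 1709 CPM) were higher in the library labelled KPC-shZEB1, and the neutrophil list (all 7 lower, 140 against 327 CPM) and the hypoxia list (all 7 lower, 467 against 1183 CPM) were lower. No gene of these 4 lists was at 0 in either library. With the study's own markers the differences were smaller, with log2 ratios of -0.35 for granulocytes (1 of 5 genes higher) and 1.20 for T cells (4 of 4 higher). Both libraries used 1718 spot barcodes in common, which mark positions on a slide and not shared cells. In such regions, fewer cells of a type and less RNA per cell cannot be told apart.

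Promoter sequence was available from RefSeq (GRCm38.p6) for 8 of the 9 genes, all but Gsdmd. The 250 bases before the transcription start are shown for Casp1 and Il18, the genes with the highest ratio between the libraries, and for Pycard and Il1b, which followed the myeloid marker lists. Capitals mark matches, on either strand, to any of 6 motifs: CACCTG (an E-box of the kind that ZEB1 binds), TTCNNNGAA (STAT type), GGAAGT (ETS core), TATAAA (the core promoter box that TBP binds), the core of the interferon-stimulated response element and a short NF-kB type motif.
Casp1, chr9:5298267-5298516, plus strand: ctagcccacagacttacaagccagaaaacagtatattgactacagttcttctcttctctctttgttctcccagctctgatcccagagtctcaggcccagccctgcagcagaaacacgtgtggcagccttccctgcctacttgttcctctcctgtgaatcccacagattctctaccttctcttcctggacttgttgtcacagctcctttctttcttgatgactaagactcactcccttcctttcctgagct
Il18, chr9:50554450-50554699, plus strand: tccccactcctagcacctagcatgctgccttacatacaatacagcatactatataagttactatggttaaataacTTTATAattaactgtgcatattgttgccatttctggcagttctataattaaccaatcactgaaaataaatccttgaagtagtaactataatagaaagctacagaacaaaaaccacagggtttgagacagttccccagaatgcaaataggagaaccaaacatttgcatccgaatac
Pycard, chr7:127993868-127994117, minus strand: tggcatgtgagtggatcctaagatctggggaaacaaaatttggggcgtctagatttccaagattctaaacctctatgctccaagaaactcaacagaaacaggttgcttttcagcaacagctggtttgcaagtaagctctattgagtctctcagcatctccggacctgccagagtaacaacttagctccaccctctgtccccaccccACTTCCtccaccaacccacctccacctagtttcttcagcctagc
Il1b, chr2:129371140-129371389, minus strand: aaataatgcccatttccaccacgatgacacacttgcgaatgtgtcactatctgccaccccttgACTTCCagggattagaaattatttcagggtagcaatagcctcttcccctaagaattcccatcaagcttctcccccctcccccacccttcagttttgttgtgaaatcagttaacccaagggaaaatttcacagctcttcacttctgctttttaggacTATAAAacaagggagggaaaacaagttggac
The E-box was found in 0 of the 8 genes' windows, where 17.2% of all 32851 promoter windows of the same length held it. The interferon response element and STAT types were also found in 0 of 8 (2.98% and 7.02% of all windows). GGAAGT was found for Pycard, Il1b and Casp4 (19.7% of all windows), TATAAA for Il1b and Il18 (12.4%) and the NF-kB type for Casp4 alone (4.65%), where it overlapped a GGAAGT match. The TATAAA match of Il1b lay 31 to 26 bases before the start on the gene's strand. That of Il18 lay 175 to 170 bases before the RefSeq start on the opposite strand. The Il18 window ends at 50554699, so this start is not the GENCODE start of the gene, 50554827, given below. A match is a description of letters and not of a bound site.

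Between the libraries, Il18, Casp1, Gsdmd and Pycard were about 2-fold higher in the library labelled KPC-shZEB1, Casp4 and Gsdme were higher by less, Casp8 and Nlrp3 were nearly level, and Il1b was lower. A log2 ratio of 1 or more was reached by 2 of 9 genes (Casp1 and Il18), where 3.81% of the 18896 genes with at least 100 UMIs reached it. A log2 ratio of -1 or less was reached by 0 of 9, where 1.72% of all genes reached it. The median log2 ratio was 0.48 over the 9 genes and -0.01 over all genes. Over all spots, acinar-rich ones included, the median gene stood at -0.48 and 0 of the 9 genes reached 2-fold, while Il18 lay 1.01 above that median.

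Of the gasdermins, Gsdmd (ENSMUSG00000022575, chromosome 15, 75862327 to 75867408 in GRCm38), the substrate of caspase-1, was read at 323 CPM in the library labelled KPC-shZEB1 and at 167 CPM in the library labelled KPC-shV (log2 ratio 0.95, interval 0.93 to 0.98). This ratio was above that of 95.8% of genes. In spots with at least 20000 UMIs, the median spot labelled KPC-shZEB1 held 294 CPM of Gsdmd and the median spot labelled KPC-shV held 149 CPM, and without the 5% of spots with the highest level the ratio was 0.98, so the difference did not rest on a few spots. Gsdme (ENSMUSG00000029821, chromosome 6, 50188888 to 50263862), a substrate of granzyme B, was read at 13.2 and 9.71 CPM (log2 ratio 0.45, interval 0.34 to 0.56). In both libraries the median spot held 0 UMIs of Gsdme, and over all spots its ratio was -0.16, which is 0.32 above the median gene there.

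Of the caspase genes, Casp1 (ENSMUSG00000025888, chromosome 9, 5298517 to 5307265) was read at 167 CPM in the library labelled KPC-shZEB1 and at 82.0 CPM in the library labelled KPC-shV (log2 ratio 1.02, interval 0.99 to 1.06). The neighbouring Casp4 (ENSMUSG00000033538, chromosome 9, 5308828 to 5336783), whose product opens the non-canonical route to GSDMD, was read at 58.8 and 42.1 CPM (log2 ratio 0.48, interval 0.43 to 0.54). Casp8 (ENSMUSG00000026029, chromosome 1, 58795374 to 58847503), the initiator of death receptor apoptosis, was read at 195 and 203 CPM (log2 ratio -0.06, interval -0.08 to -0.03). The 3 caspase genes thus differed in their ratios by more than counting error, and over all spots, relative to the median gene, Casp4 stood at 0.35 and Casp8 at -0.17.

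Of the inflammasome genes, Nlrp3 (ENSMUSG00000032691, chromosome 11, 59541568 to 59566956) was read at 7.07 and 6.41 CPM in the libraries labelled KPC-shZEB1 and KPC-shV, with a log2 ratio of 0.14 and an interval that reached 0. Over all spots its ratio was -0.46, which is 0.02 above the median gene. Pycard (ENSMUSG00000030793, chromosome 7, 127989708 to 127993867) was read at 46.0 and 24.5 CPM (log2 ratio 0.91, interval 0.85 to 0.98). Summed over these spots, the sensor was therefore nearly level between the sections while its adaptor was about 2-fold higher where the label gives the knockdown. Both ratios changed with the weighting of spots, as given below.

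The cytokines went in opposite directions. Il18 (ENSMUSG00000039217, chromosome 9, 50554827 to 50581840), which induces interferon-γ in lymphocytes, was read at 67.9 CPM in the library labelled KPC-shZEB1 and at 30.3 CPM in the library labelled KPC-shV (log2 ratio 1.16, interval 1.11 to 1.22), above 97.2% of genes. Il1b (ENSMUSG00000027398, chromosome 2, 129364570 to 129371139), a product of activated myeloid cells, was read at 72.8 and 90.3 CPM (log2 ratio -0.31, interval -0.35 to -0.27). After each spot was thinned to 5000 UMIs, Il18 was found in 22.9% of spots labelled KPC-shZEB1 (exact 95% interval 20.8 to 25.2) and in 11.96% of those labelled KPC-shV (10.8 to 13.1), and Il1b in 25.3% (23.1 to 27.6) and 33.5% (31.9 to 35.2). Without thinning the shares were 82.5% and 56.1% for Il18 and 83.0% and 84.9% for Il1b. Thinning left out 4 and 174 shallower spots, respectively. A second random draw at 5000 UMIs gave 23.9% and 11.7% for Il18 and 28.3% and 34.2% for Il1b. Of these, 28.3% lay outside the interval of the first draw. Both draws carry random error, and the spread over more draws was not measured. The intervals treat spots as independent, although the spots of a library share a section.

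**Figure D1:**
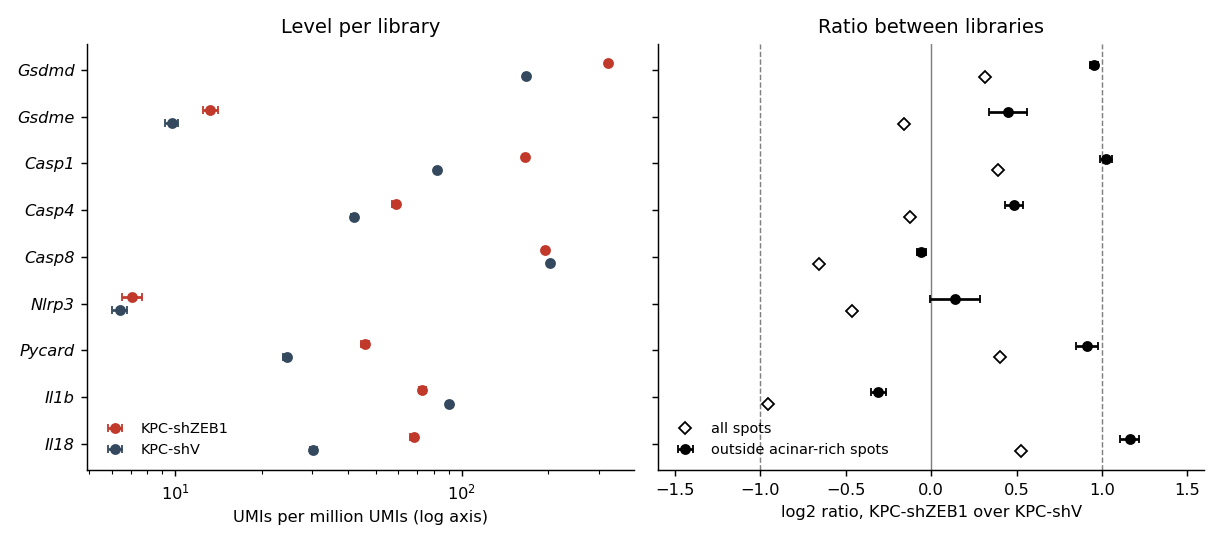
Levels of the 9 genes outside acinar-rich spots. Left, CPM on a log axis in the libraries labelled KPC-shZEB1 (red) and KPC-shV (blue), with exact Poisson 95% intervals. Right, log2 ratio between the libraries outside acinar-rich spots (filled, with exact 95% intervals) and over all spots (open), with dashed lines at 2-fold; Il18 at 1.16 and Casp1 at 1.02 lie past the upper line and Il1b at -0.31 is the lowest.

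Because the sections differed in their cell makeup, the genes were next read in spots rich in tumor, macrophage, neutrophil or T cell markers. In each library, the 10% of spots outside acinar-rich tissue with the highest share of UMIs from a marker list (146 spots labelled KPC-shZEB1 and 330 labelled KPC-shV) were set against the other spots outside acinar-rich tissue. These spots are regions and not sorted cells, and they overlap. Of the macrophage-rich spots, 44.5% labelled KPC-shZEB1 and 43.3% labelled KPC-shV were also T cell rich, and 34.9% and 59.1% were among the 10% richest in fibroblast genes. Of the neutrophil-rich spots, 7.53% and 49.4% were also among the 10% richest in hypoxia genes. Neutrophil-rich spots labelled KPC-shV were shallow, with a median of 7090 UMIs against 58296 in the other spots, and held 3960 CPM of the neutrophil list, whereas those labelled KPC-shZEB1 had a median of 53145 UMIs and held 496 CPM of it.

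Few of the genes were 2-fold higher in marker-rich spots of both sections, and which ones depended on the list. A log2 ratio of 1 or more in both libraries was reached by 1 of 9 genes in tumor-rich spots (Il18; 0.624% of all genes), by 2 of 9 in macrophage-rich spots (Pycard and Nlrp3; 8.93% of all genes), by 1 of 9 in neutrophil-rich spots (Il1b; 1.12%) and by 1 of 9 in T cell rich spots (Pycard; 7.27%). Gsdmd, Gsdme, Casp1, Casp4 and Casp8 reached it in none of the 4 kinds of spots.

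**Figure D2:**
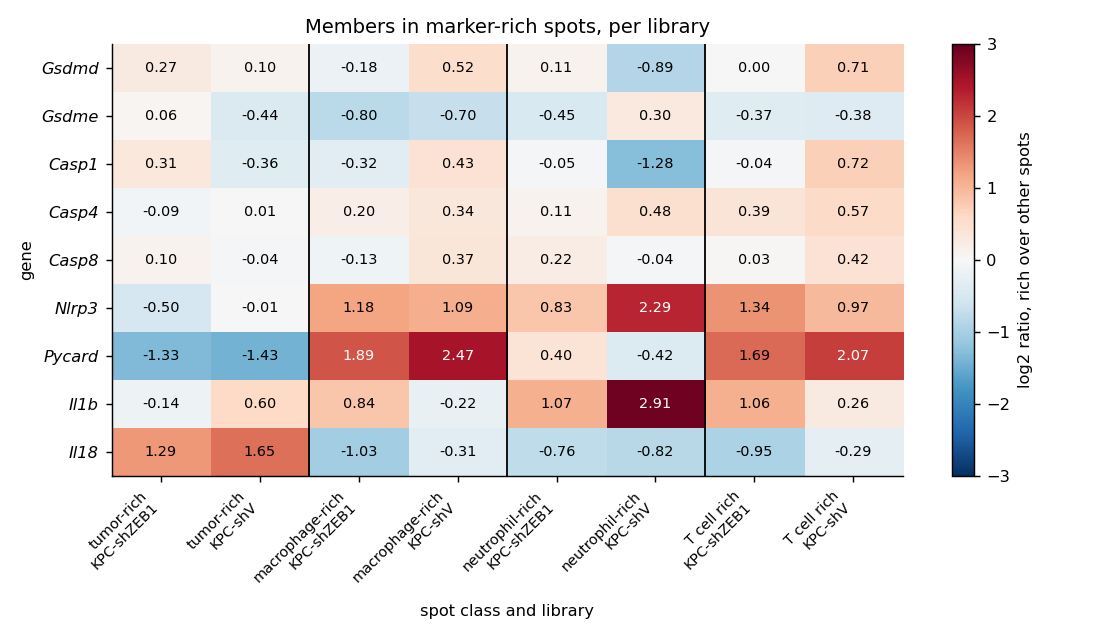
Log2 ratio of each gene in marker-rich spots over the other spots outside acinar-rich tissue, one column per kind of spot and library, on a color scale from -3 (blue) to 3 (red). Il18 is red only in the tumor-rich columns, Pycard is red in the macrophage-rich and T cell rich columns and blue in the tumor-rich ones, and Il1b reaches its highest value, 2.91, in neutrophil-rich spots labelled KPC-shV.

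Tumor-rich spots were marked by Il18. In the library labelled KPC-shZEB1, Il18 was read at 142 CPM in tumor-rich spots and at 57.8 CPM in the others (log2 ratio 1.29, interval 1.20 to 1.38). In the library labelled KPC-shV it was read at 79.7 and 25.4 CPM (log2 ratio 1.65, interval 1.55 to 1.74). Its levels in macrophage-rich and T cell rich spots were below those in tumor-rich spots, at 34.6 and 36.6 CPM labelled KPC-shZEB1 and 24.7 and 25.1 CPM labelled KPC-shV. When all spots of both libraries were ranked together by the tumor list and split into deciles, Il18 went from 35.1 CPM in the lowest to 132 CPM in the highest decile labelled KPC-shZEB1, with a dip in the second and in the eighth. In the spots labelled KPC-shV it stayed between 21.3 and 28.6 CPM over the first 9 deciles and reached 93.0 CPM in the last. Spearman's rho of Il18 with the tumor list over spots was 0.40 labelled KPC-shZEB1 and 0.02 labelled KPC-shV, so the relation labelled KPC-shV was seen in the last decile alone. With the 20% richest spots in place of 10%, the ratio labelled KPC-shV was 0.96.

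Pycard showed the reverse. In tumor-rich spots it was read at 19.7 CPM labelled KPC-shZEB1 (49.6 CPM in the others, log2 ratio -1.33, interval -1.55 to -1.13) and at 9.65 CPM labelled KPC-shV (25.9 CPM in the others, log2 ratio -1.43, interval -1.68 to -1.19). In macrophage-rich spots it was read at 139 CPM (37.7 CPM in the others, log2 ratio 1.89, interval 1.78 to 1.99) and at 110 CPM (19.8 CPM in the others, log2 ratio 2.47, interval 2.37 to 2.58). T cell rich spots held nearly as much, 127 and 86.2 CPM. Of the 4 kinds of spots, the macrophage-rich ones thus held the most Pycard in both sections. In fibroblast-rich spots, which overlap them, its log2 ratios were 1.04 and 2.18, and the part of fibroblasts in its values was not tested. Over deciles of the macrophage list it climbed without a break from 12.1 CPM in the second to 139 CPM in the last decile labelled KPC-shZEB1, and from 5.45 to 110 CPM labelled KPC-shV.

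Nlrp3 was higher in macrophage-rich, neutrophil-rich and T cell rich spots of both sections. Nlrp3 in macrophage-rich spots was read at 14.5 CPM labelled KPC-shZEB1 (log2 ratio 1.18, interval 0.85 to 1.49) and at 12.9 CPM labelled KPC-shV (log2 ratio 1.09, interval 0.79 to 1.38). In neutrophil-rich spots it was read at 11.7 CPM (log2 ratio 0.83, interval 0.49 to 1.15) and at 28.9 CPM (log2 ratio 2.29, interval 1.98 to 2.58). In T cell rich spots it was read at 16.0 CPM (log2 ratio 1.34) and 11.9 CPM (log2 ratio 0.97). The intervals of its levels labelled KPC-shZEB1 in these 3 kinds of spots overlapped, and its lowest level was in tumor-rich spots, 5.19 CPM labelled KPC-shZEB1 and 6.37 CPM labelled KPC-shV. With the macrophage-rich spots weighted equally, the ratio labelled KPC-shV was 0.29. In neutrophil-rich spots labelled KPC-shV, which were shallow, the ratio of Nlrp3 was 0.95 with at least 20000 UMIs per spot. With the richest 5% of spots it was 3.30 there.

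Il1b followed the neutrophil list. In neutrophil-rich spots it was read at 138 CPM labelled KPC-shZEB1 (66.1 CPM in the others, log2 ratio 1.07, interval 0.97 to 1.16) and at 597 CPM labelled KPC-shV (79.2 CPM in the others, log2 ratio 2.91, interval 2.85 to 2.98). Depth and hypoxia moved with this value: with at least 20000 UMIs per spot the ratios were 1.01 and 1.38. Without the 10% of spots richest in hypoxia genes they were 0.98 and 1.92. In macrophage-rich spots Il1b was read at 122 CPM labelled KPC-shZEB1 (log2 ratio 0.84) and at 78.0 CPM labelled KPC-shV (log2 ratio -0.22). T cell rich spots held 140 and 107 CPM of Il1b, and tumor-rich spots 66.7 and 131 CPM. The order of the spots by Il1b thus differed between the sections: neutrophil-rich and T cell rich spots were highest and within counting error of each other labelled KPC-shZEB1, and neutrophil-rich spots were highest by far labelled KPC-shV.

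Gsdmd and Casp1 followed no single list, and they moved together. Labelled KPC-shZEB1, Gsdmd lay between 288 and 379 CPM in the 4 kinds of spots and Casp1 between 136 and 201 CPM, with tumor-rich spots the highest for both. Labelled KPC-shV, both were highest in T cell rich spots (263 CPM of Gsdmd, log2 ratio 0.71, and 130 CPM of Casp1, log2 ratio 0.72) and lowest in neutrophil-rich spots (91.2 CPM, log2 ratio -0.89, and 34.3 CPM, log2 ratio -1.28). In hypoxia-rich spots labelled KPC-shV they were read at 84.3 and 28.5 CPM (log2 ratios -1.02 and -1.57). In neutrophil-rich spots labelled KPC-shV, the ratios were -0.54 for Gsdmd and -0.84 for Casp1 with at least 20000 UMIs per spot, and -0.44 and -0.84 without hypoxia-rich spots, so both stayed below 0 by less. Over the spots with at least 20000 UMIs, Gsdmd and Casp1 correlated with Spearman's rho of 0.45 in both libraries (1407 and 2671 spots, which share a section and its depth), the highest rho of any pair of the 9 genes. The relation was not particular to this pair. Gbp2, an interferon-inducible gene outside the 9, had rho of 0.52 labelled KPC-shZEB1 and 0.40 labelled KPC-shV with Gsdmd. With Casp1 it had 0.51 and 0.55.

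Gsdme, Casp4 and Casp8 spanned under 2-fold over the 4 kinds of spots of either library. Gsdme lay between 7.89 and 13.7 CPM in the 4 kinds of spots labelled KPC-shZEB1 and between 6.10 and 11.9 CPM labelled KPC-shV, and was lower in macrophage-rich spots of both (log2 ratios -0.80 and -0.70). Casp4 lay between 55.7 and 75.3 CPM and between 42.4 and 60.9 CPM, with the highest level in T cell rich spots of both. Casp8 lay between 179 and 223 CPM and between 198 and 266 CPM. In acinar-rich spots all 9 genes were lower than outside them in both libraries, with log2 ratios from -5.58 (Il1b) to -2.22 (Pycard) labelled KPC-shZEB1 and from -4.07 (Il1b) to -0.81 (Pycard) labelled KPC-shV. This was not particular to these genes. The acinar list held 600021 and 400385 CPM in those spots, and the part of this in the lower levels was not tested. The other marker lists were lower there too, such as the tumor list (-4.88 and -3.86), except the fibroblast list labelled KPC-shV (0.08).

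**Figure D3:**
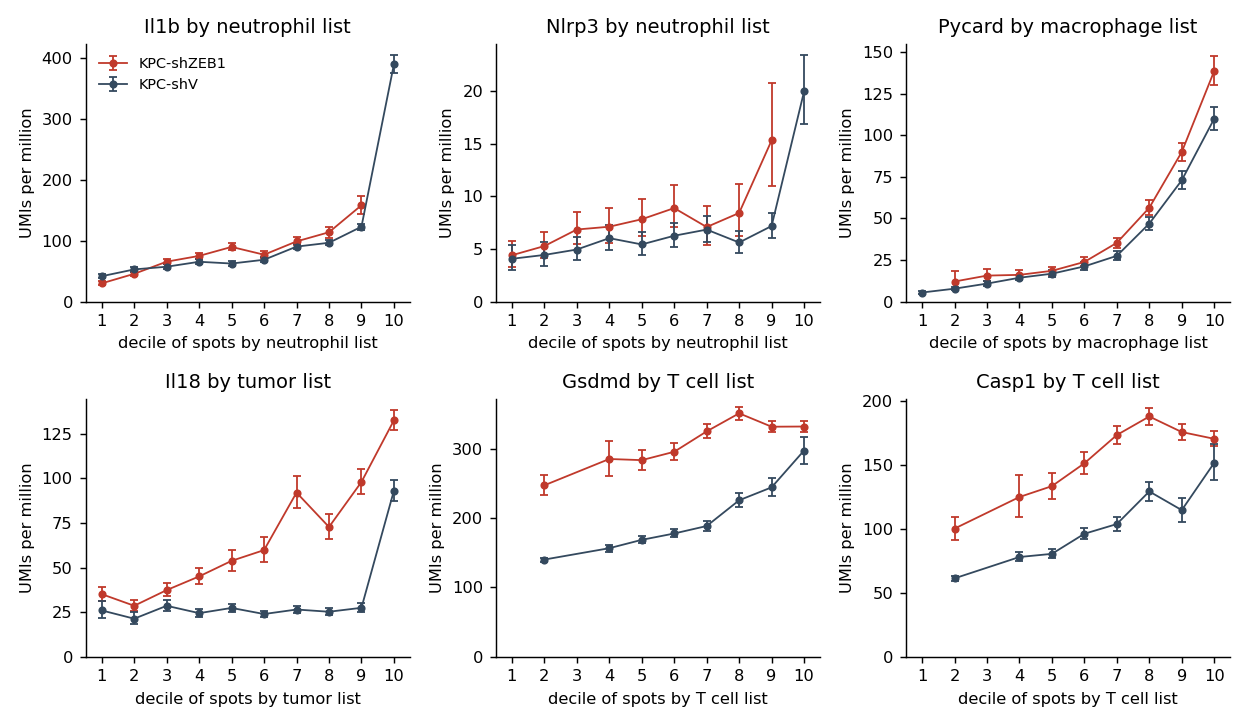
Level of 6 genes (CPM, exact Poisson 95% intervals) over deciles of the spots of both libraries, ranked together by the share of UMIs from a marker list, for the libraries labelled KPC-shZEB1 (red) and KPC-shV (blue). Deciles with under 20 spots of a library are not drawn, and spots with 0 UMIs of the T cell list share 1 decile. Gsdmd and Casp1 are higher in red in all 8 deciles drawn for both libraries, Il1b reaches its highest level in the last neutrophil decile, which is drawn for the library labelled KPC-shV alone, and Il18 is higher toward the last tumor deciles in red but flat before the last one in blue.

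The difference between the libraries was then read within deciles ranked over both libraries together, and within the marker-rich spots of each library. Gsdmd, Casp1 and Il18 were higher in the library labelled KPC-shZEB1 in every decile compared of each of 5 lists: 10 of 10 tumor, 9 of 9 macrophage, 9 of 9 neutrophil, 8 of 8 T cell and 9 of 9 hypoxia deciles with at least 20 spots of each library. The deciles split the same counts that gave the ratios above, so they are not separate evidence of a difference. No share over all genes is given for this count. Weighting both libraries to the same spread over these deciles gave log2 ratios from 0.65 to 0.93 for Gsdmd, from 0.60 to 0.98 for Casp1 and from 1.02 to 1.19 for Il18. The lowest of the values for Gsdmd and Casp1 came with the T cell list. In T cell rich spots alone, Gsdmd was read at 323 and 263 CPM (log2 ratio 0.30, interval 0.22 to 0.38) and Casp1 at 162 and 130 CPM (log2 ratio 0.32, interval 0.20 to 0.44). These spots are the richest 10% of each library by itself and were not alike. They held 550 CPM of the T cell list labelled KPC-shZEB1 and 194 CPM labelled KPC-shV, and the part of this gap in the ratios was not tested. In macrophage-rich spots Gsdmd had a log2 ratio of 0.30 (interval 0.21 to 0.39) and Casp1 of 0.32 (interval 0.19 to 0.46). Those spots held 6993 CPM of the macrophage list labelled KPC-shZEB1 and 7511 CPM labelled KPC-shV. In tumor-rich spots the ratios of Gsdmd and Casp1 were 1.10 (interval 1.03 to 1.17) and 1.62 (interval 1.51 to 1.74). The tumor list was made of the epithelial genes Epcam, Cdh1, Krt7, Krt8, Krt19 and Cldn4. Outside acinar-rich spots, 2 of its 6 genes were higher labelled KPC-shZEB1 and 4 were lower, 1 of them at least 2-fold. Whether the list picks the same cells in both libraries was not tested.

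Pycard, Il1b and Nlrp3 changed with the list used. Nlrp3 was 0.49 at the same spread of the neutrophil list, with 9 of 9 deciles higher in the library labelled KPC-shZEB1. Of the T cell deciles, 1 of 8 was higher there for Nlrp3. With every spot weighted equally Nlrp3 was -0.47, and it was above 0 under 9 of 14 alternatives. At the same spread of the T cell list, Pycard was -0.15, with 4 of 8 deciles higher in the library labelled KPC-shZEB1, against 0.91 without weighting. At the same spread of the macrophage list it was 0.31, with 9 of 9 deciles higher. Il1b turned to 0.20 at the same spread of the neutrophil list, with 7 of 9 deciles higher in the library labelled KPC-shZEB1, and stood at -0.66 at the same spread of the T cell list. With every spot weighted equally, so that the many shallow spots labelled KPC-shV count as much as deep ones, Il1b was -1.15 and passed the 2-fold line. Within neutrophil-rich spots Il1b was read at 138 and 597 CPM (log2 ratio -2.11, interval -2.22 to -2.0), but these held unequal amounts of the neutrophil list as given above. Their part in this ratio was not tested.

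**Figure D4:**
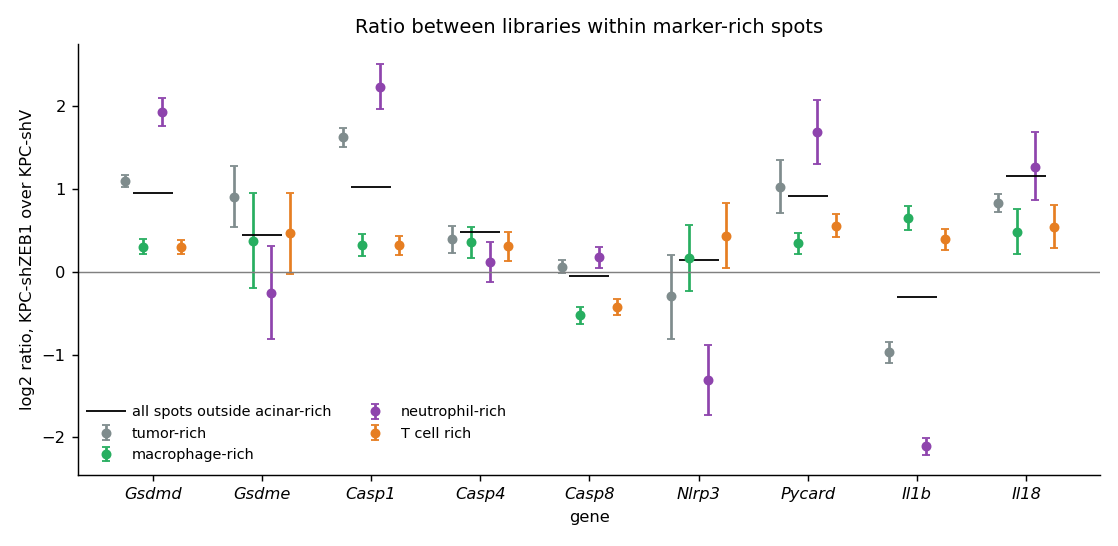
Log2 ratio between the libraries (KPC-shZEB1 on top) for each gene within the 10% of spots richest in tumor, macrophage, neutrophil or T cell markers of each library, with exact 95% intervals, and over all spots outside acinar-rich tissue (black bars). Il18, Gsdmd, Casp1 and Pycard lie above 0 in all 4 kinds of spots, with Gsdmd and Casp1 highest in neutrophil-rich spots (1.93 and 2.23), and Il1b runs from -2.11 in neutrophil-rich to 0.65 in macrophage-rich spots.

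Other genes of the pathway were read from lists of gasdermins, sensors, caspases and cell death, priming, cytokines and receptors, and gasdermin proteases. Of 61 genes, 58 had at least 100 UMIs; of these, 8 were at least 2-fold higher labelled KPC-shZEB1 and 1 at least 2-fold lower, and the median log2 ratio was 0.27. Over all genes the corresponding shares were 3.81% and 1.72%. Among 13 priming genes, 4 were 2-fold higher: the interferon-inducible GTPases Gbp5 (78.1 against 19.6 CPM, log2 ratio 1.99), Gbp2 (720 against 244 CPM, 1.56) and Gbp3 (147 against 64.6 CPM, 1.19), which expose cytosolic bacteria to inflammasomes, and the receptor Tlr2 (40.7 against 18.1 CPM, 1.17). Among 11 sensors, 2 were 2-fold higher, Naip1 (27.5 against 6.48 CPM, log2 ratio 2.09), of a family that senses bacterial needle and flagellin proteins, and Nlrp6 (18.2 against 6.07 CPM, 1.58). Among 10 cytokine and receptor genes, Il1rl1, the receptor of IL-33, was higher (6.68 against 3.01 CPM, log2 ratio 1.15) and Il1a was lower (17.6 against 45.6 CPM, -1.38), so that both IL-1 ligand genes were lower in the library labelled KPC-shZEB1. Of 6 protease and membrane rupture genes, perforin (Prf1) was higher (7.03 against 3.10 CPM, log2 ratio 1.18), and of 13 genes of caspases and cell death 0 passed 2-fold in either direction. None of the 5 other gasdermin genes with enough UMIs passed it.

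The study follows Gzma-positive T cells, so the genes were also read in spots with Gzma, which encodes granzyme A. Each spot outside acinar-rich tissue with at least 20000 UMIs was thinned to 20000 UMIs, after which 210 of 1407 spots labelled KPC-shZEB1 and 249 of 2671 labelled KPC-shV held Gzma. Labelled KPC-shZEB1, Gsdmd was read at 324 CPM with and 324 CPM without Gzma (log2 ratio 0.00, interval -0.05 to 0.05). Labelled KPC-shV it was read at 202 and 163 CPM (log2 ratio 0.31, interval 0.25 to 0.36). Casp1 showed the same contrast (-0.01 and 0.49), Pycard was higher in Gzma spots of both (0.50 and 0.53), and Gsdme had ratios of -0.21 and -0.19 with intervals that held 0. Il18 was lower in Gzma spots labelled KPC-shZEB1 (-0.35, interval -0.47 to -0.24) and higher in those labelled KPC-shV (0.33, interval 0.21 to 0.46). Nlrp3 had ratios of 0.67 and 0.26, the second with an interval that held 0. The ratios were 0.38 and -0.09 for Il1b, 0.06 and 0.34 for Casp4, and 0.04 and 0.13 for Casp8. The macrophage list was also higher in Gzma spots, by 0.28 and 0.49 on the log2 scale, and its part in these ratios was not tested. A spot was counted with any Gzma UMI left after thinning, and the T cell list was not read in these spots. They are regions with more than 1 kind of cell, so these values do not say which cell the transcripts came from.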

How the data were processed

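Per the labels, the authors hybridized Visium CytAssist probes to methanol-fixed frozen tumor sections. The submitters' processing notes name Space Ranger 2.0.1 and mm10, and the authors deposited the raw UMI count per gene and spot, without normalization. The assay reads probes, so levels were not compared between genes. From the deposited counts, CPM and log2 ratios were computed outside acinar-rich spots with Python 3.11.15, numpy 2.4.6, scipy 1.17.1 and pandas 2.3.3; exact 95% intervals (Poisson for levels, conditional binomial for ratios, Clopper-Pearson for shares) cover counting error only. The precision follows the depth, 58340 and 54861 UMIs in the median spot. Gene positions came from GENCODE M21. Log2 ratios and their intervals were tested on simulated Poisson counts with known changes, drawn without differences in makeup between the spots of a library. Doublets were not called, since spots are regions, and images were not used here.

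The 9 genes and the lists were chosen with earlier results of these data known. All 9 are named; other pathway genes are named at 2-fold or more with at least 200 UMIs, and 3 most alike genes for each. Alternatives changed the acinar threshold, the depth, the share of rich spots, the weighting of spots and the marker lists. Of the list genes, Nlrp1b, Nlrc4, Naip6, Serpinb1a, Try5, Cpb1, Pnliprp1, Amy2b, Krt18 and Ccnb1 were not used here.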

Additional observations from a re-analysis of the deposited data

Results flagged for a closer look

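Over the 4 kinds of marker-rich spots, there were 4 cases in which a gene stood on opposite sides of 0 in the sections. In each case both values lay at least 0.2 from 0 on the log2 scale, with both intervals away from 0. No share over all genes is given for this count. Gsdmd in macrophage-rich (-0.18 and 0.52) and neutrophil-rich spots (0.11 and -0.89), Casp8 in macrophage-rich spots (-0.13 and 0.37) and Il1b in tumor-rich spots (-0.14 and 0.60) also had opposite signs, with the smaller value under that size. None of these differences was tested, since there is 1 library per group. Casp1 in tumor-rich over other spots was 0.31 labelled KPC-shZEB1 and -0.36 labelled KPC-shV, a difference of 0.67 on the log2 scale, and in macrophage-rich spots it was -0.32 and 0.43, a difference of -0.75. Of the tumor-rich spots, 21.9% labelled KPC-shZEB1 and 40% labelled KPC-shV were also hypoxia-rich. Il1b in macrophage-rich spots was 0.84 and -0.22, a difference of 1.06; among spots rich in that list and no other of the 4, the value labelled KPC-shZEB1 was -0.04, and with at least 20000 UMIs the value labelled KPC-shV was 0.19. Pycard in neutrophil-rich spots was 0.40 and -0.42, a difference of 0.82, and with 1 threshold for both libraries, which left 12 spots labelled KPC-shZEB1, its value there was 1.67. Among spots rich in the neutrophil list and no other of the 4, its value labelled KPC-shZEB1 was -0.08. With the richest 5% of spots, its value labelled KPC-shV was 0.03. It was above 0 under 8 of 9 alternatives labelled KPC-shZEB1 and under 1 of 9 labelled KPC-shV.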

How the results depend on the processing

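With 1 library per group, no library could be left out. For the same reason no paired analysis was possible. The count of genes at least 2-fold higher in the library labelled KPC-shZEB1, 2 of 9, was 0 over all spots and 1 when spots over 40% acinar were left out or when both libraries had the same spread over deciles of the neutrophil, hypoxia, macrophage, tumor or T cell list. The count at least 2-fold lower, 0 of 9, was 1 with every spot weighted equally (Il1b). The tumor-rich count of 1 was 0 with the richest 20% of spots. The macrophage-rich count of 2 was 1 with the richest 5%, the richest 20%, spots rich in 1 of the 4 lists only, and every spot weighted equally. The neutrophil-rich count of 1 was 2 with the richest 5%, 1 threshold for both libraries and the study's markers, and 0 with the richest 20%, spots rich in 1 list only, and without hypoxia-rich spots. The T cell rich count of 1 was 2 with the richest 5%, 1 threshold and the study's markers. The cause of these changes was not tested. Gsdmd, Casp1 and Il18 were above 0 between the libraries under 14 of 14 alternatives, from 0.32 to 0.98, 0.39 to 1.06 and 0.53 to 1.27; Casp8 was below 0 under 14 of 14. Gsdme in neutrophil-rich spots gave no value with 1 threshold, since it had 0 UMIs in the 12 spots labelled KPC-shZEB1. The tumor and T cell deciles and the setting without hypoxia-rich spots were chosen after seeing the data. Gsdme and Nlrp3, at under 15 CPM in both libraries, are the genes that depth limits most.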

Other observations

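Over 20 groups of spots (the 10% of spots richest in each of 9 marker lists and the acinar-rich spots, in each library), the genes most like each member were ranked by Pearson's r of log2(CPM + 1) among 11714 other genes, as a description of groups that share spots and libraries. For Gsdmd these were Hsd17b11 (0.986), Naip2 (0.985) and Casp1 (0.985). For Casp1 they were Psmb10 (0.992), a subunit of the immunoproteasome, Gsdmd (0.985) and Snf8 (0.985). For Gsdme they were Fsd1l, 3110009E18Rik and Sf3a1, for Casp4 Ncoa3, Elf4 and Adam17, and for Casp8 Zfp800, Szrd1 and Mboat7. For Nlrp3 they were Sirpb1b, Nfkbid and Samsn1, and for Pycard Tlr9 (0.992), Fyb (0.992) and Clec12a (0.989). For Il1b they were Nfkbia (0.979), Gla (0.979) and Grina (0.977), and for Il18 Ppcs (0.961), Prps2 and Micos13. Acinar-rich spots are far from the rest for most genes and carry much of these values. Without them, over 18 groups, Psmb10 (0.987) was still first for Casp1 and Fsd1l (0.924) for Gsdme. Psmb10 (0.965) was then also first for Gsdmd. Pycard was led by Fyb (0.996), and Casp4 by Ifi206 (0.884), while Casp8 was led by Pisd (0.920).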
